A study of Xenopus laevis with 24 samples.

Results

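The 50 most abundant transcript records of *Xenopus laevis* gastrulae were chosen by their mean FPKM (sequenced fragments, scaled to transcript length and library size) over 24 libraries, as the 50 highest of 31306 records in the deposited table. Records whose description holds the words ribosomal protein were to be left out. None stood among the 50, since the most abundant of them ranked at 73 with a mean of 459 FPKM. Because the level itself chose the records, their levels and their share of each library are given below as description with no test. Differences between exposures and between clutches were not themselves used in the choice and were tested. The mean covered every library, however, so a very high value in a single library could bring a record in.

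The study exposed embryos to ligands of the retinoic acid receptors (RARs) and measured RNA at gastrula stage 10.5. The 3 exposures were 1 µM TTNPB, a synthetic RAR-selective agonist, 1 µM AGN193109, an RAR-selective inverse agonist, and 0.1% ethanol as vehicle. All were given from stage 6 to 7 in dishes of 25 embryos from in vitro fertilised eggs of 2 females, whose clutches are called E and D. Each library came from a pool of 5 embryos, and each exposure had 4 libraries per clutch, named by number and clutch (4E, for example). The labels do not say which pools shared a dish, so p-values measure the spread between pools, which may be partly technical. There are only 2 clutches, so a difference between them describes these 2 sibships and cannot be told apart from whatever else separated their handling. No run or sequencing date was given in the labels. In whole embryos, fewer cells of a type and less RNA per cell cannot be told apart.

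RARs are nuclear receptors that bind DNA together with retinoid X receptors; an agonist favours the recruitment of co-activators and an inverse agonist that of co-repressors. At the start of gastrulation an embryo holds both maternal messenger RNA, loaded into the egg, and transcripts of its own genome. Abundant messenger RNA at this stage is known to include parts of the translation machinery, proteins that package RNA, and chromatin proteins made for rapid cell division. FPKM is scaled to library size, so a few very high records can lower the values of others in the same library. Whether they did so here was not tested.

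Several markers of the stage were present in these libraries. Summed FPKM ran from 131 to 296 for 2 brachyury records and from 20.5 to 125 for 2 Sox17 records. The single Sox3 record had 41.8 to 239.7 FPKM and the chordin record 20.9 to 80.8. The goosecoid record was low, at 0.431 to 13.2 FPKM, and no description matched VegT, mixer, Sox2 or foxi1. The alpha-globin record of blood was at 0 in all 24 libraries, and the 8 vitellogenin records of liver summed to at most 1.86 FPKM. Myosin heavy chain, crystallin and skeletal actin records were low but above 0 in every library. They summed to at most 5.70, 5.92 and 5.41 FPKM, which overlaps the range of goosecoid. One library stood apart from all others before any comparison. In AGN193109 4E the median record had 2.77 FPKM, against 4.23 to 5.76 FPKM in the other 23 libraries. Results that rest on it are therefore given with and without it.

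Most of the 50 records are not described as genes. Of the 50, 33 (66.0%) were described as complementary DNA clones. So were 11478 of the 19635 records that averaged 1 FPKM or more and were tested (58.5%). Some clone descriptions, such as that of IMAGE:3379209, also name a similar protein. Among the 10 most abundant, 8 were clones. A further 12 descriptions named a gene or protein, 3 gave an NCBI gene number and 2 an MGC clone number. By number alone, RefSeq (assembly Xenopus_laevis_v10.1) pairs LOC100049085 with *ccdc50.L*, LOC100049088 with *sdk2.L* and LOC100049086 with *aifm2.S*. The identity of these sequences was not checked. *X. laevis* is allotetraploid, with near-identical L and S copies of many genes, and reads shared between copies or between overlapping clones could be split among records, so the level of any single record is uncertain.

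The members held more than 50% of the summed FPKM in every library. Their share averaged 61.9% ± 5.47 in TTNPB libraries (SD, n = 8, range 57.1% to 69.9%), 63.1% ± 10.5 in AGN193109 libraries (n = 8, range 54.0% to 85.9%) and 63.5% ± 5.44 in vehicle libraries (n = 8, range 57.2% to 70.5%). Without AGN193109 4E, the AGN193109 libraries ran from 54.0% to 65.9% with a mean of 59.8% ± 5.54 (n = 7). The 3 exposures overlapped over most of their range. By clutch, the share ran from 54.9% to 85.9% in clutch E (median 59.1%, highest 65.6% without 4E) and from 54.0% to 70.5% in clutch D (median 66.8%), so that the clutches overlapped too.

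**Figure D1:**
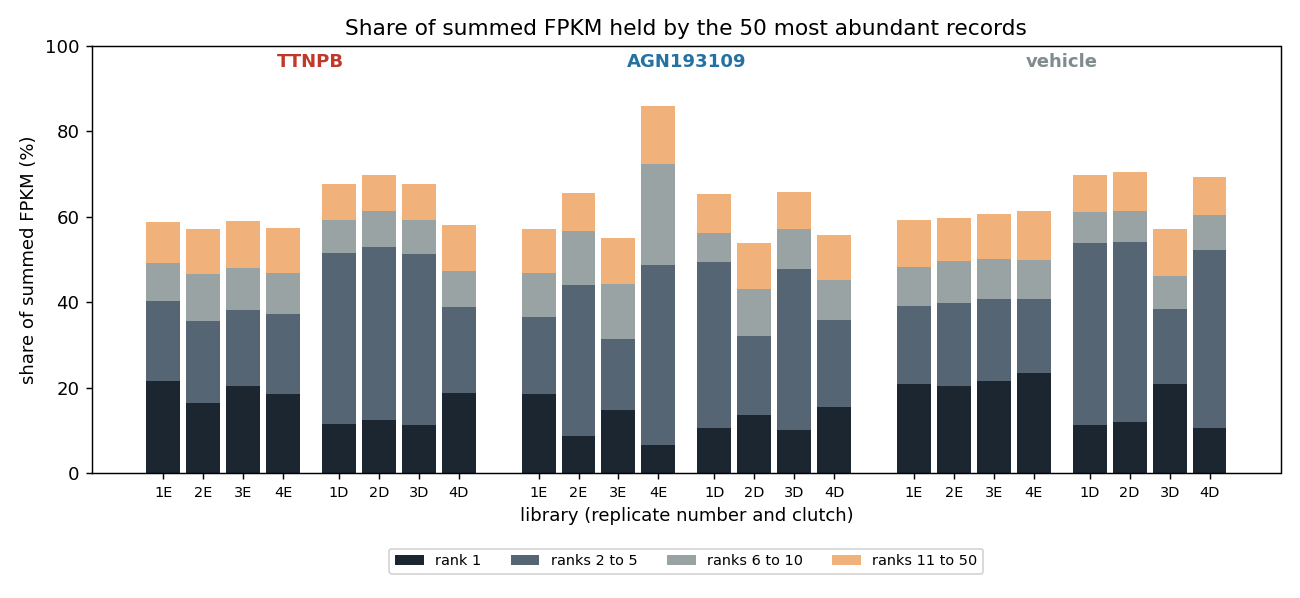
Share of summed FPKM (%, y axis) held by the 50 records in each of the 24 libraries (x axis, replicate number and clutch), stacked by abundance rank. AGN193109 4E reaches 85.9%, and clutch D libraries fall into taller bars near 65% to 70% and 4 shorter ones between 54.0% and 58.0%.

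A handful of clones made up most of that share. The top 10 held 72.3% of the summed FPKM in AGN193109 4E and 43.1% to 61.4% in the other 23 libraries. The number of records needed to reach 50% of the summed FPKM was 4 in AGN193109 4E and 5 to 25 elsewhere. Most of the 50 ranked as high in single libraries: 45 to 48 of the 50 were among the 50 highest records of each of those 23 libraries, and 37 in AGN193109 4E. The 12 members described as genes together held 0.561% of the summed FPKM in AGN193109 4E and 1.33% to 2.54% in the others.

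The most abundant record was the clone IMAGE:3379209, described as similar to adrenal gland protein AD-002, with a mean of 117194 FPKM. It ran from 107169 to 145058 FPKM in TTNPB libraries (median 121585), from 65793 to 124246 in AGN193109 libraries (median 93022) and from 105126 to 157814 in vehicle libraries (median 139960). By clutch it ran from 65793 to 157814 FPKM in clutch E (median 132492) and from 91014 to 151386 in clutch D (median 110220). It was the highest record in 14 of the 24 libraries, and the second-ranked clone XL462l08ex was the highest in 9.

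XL462l08ex differed far more between libraries of 1 group. In clutch E it had 66789, 61812, 69533 and 67004 FPKM in TTNPB 1E to 4E, 55444, 113725, 45029 and 125010 FPKM in AGN193109 1E to 4E, and 67691, 70574, 72210 and 67652 FPKM in vehicle 1E to 4E. In clutch D it had 171314, 168032, 175233 and 73408 FPKM in TTNPB 1D to 4D, 173934, 54511, 160770 and 70784 FPKM in AGN193109 1D to 4D, and 211055, 216275, 58150 and 191086 FPKM in vehicle 1D to 4D. Thus 8 clutch D libraries lay at 160770 FPKM or more, while TTNPB 4D, AGN193109 2D and 4D and vehicle 3D lay within the range of clutch E. AGN193109 2E and 4E stood above the other 10 clutch E libraries. The labels give nothing that sets these libraries apart.

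The same libraries were high or low for other leading clones. IMAGE:6947393, at rank 3, had 25309 to 29474 FPKM in TTNPB 4D, AGN193109 2D and 4D and vehicle 3D, and 56075 to 79741 FPKM in the other 8 clutch D libraries. It had 91461 and 152898 FPKM in AGN193109 2E and 4E and 19380 to 33227 FPKM in the other clutch E libraries. In XL473e07ex, at rank 4, and rxlk130j09, at rank 5, the same 4 clutch D libraries were the lowest of their clutch, and AGN193109 2E and 4E the highest of clutch E. XL473e07ex ran from 20834 to 63378 FPKM in clutch E (median 26660) and from 27646 to 93448 in clutch D (median 75194). rxlk130j09 ran from 3757 to 74164 FPKM in clutch E (median 8783) and from 11181 to 67791 in clutch D (median 48747). These ranges overlapped between the clutches for all 4 clones.

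By exposure the same 4 clones overlapped over nearly their whole range. XL462l08ex had medians of 71470 FPKM with TTNPB (61812 to 175233), 92255 with AGN193109 (45029 to 173934) and 71392 with vehicle (58150 to 216275). IMAGE:6947393 had medians of 32600 FPKM with TTNPB (24199 to 72572), 42130 with AGN193109 (25309 to 152898) and 28352 with vehicle (19380 to 79741). XL473e07ex had medians of 29488 FPKM with TTNPB (20834 to 93448), 41147 with AGN193109 (22001 to 72422) and 30215 with vehicle (24632 to 90924). In each of the 4 the spread within an exposure was larger than the distance between exposure medians. At rank 5, rxlk130j09 had medians of 10514 FPKM with TTNPB (4635 to 56658), 21382 with AGN193109 (9999 to 74164) and 10766 with vehicle (3757 to 67791). Without AGN193109 4E the AGN193109 medians were 70784 FPKM for XL462l08ex, 28184 for IMAGE:6947393, 29087 for XL473e07ex and 17537 for rxlk130j09.

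The remaining 5 of the top 10 were less divided, though XL444a17ex followed part of the same library pattern. LOC100049085 had medians of 20125 FPKM with TTNPB (11951 to 24272), 26384 with AGN193109 (15650 to 30890) and 16462 with vehicle (8833 to 25514). It ran from 8833 to 30890 FPKM in clutch E (median 19183) and from 13780 to 26967 in clutch D (median 21782). XL444a17ex had medians of 16867 FPKM with TTNPB (13251 to 26785), 17104 with AGN193109 (753.9 to 28546) and 16903 with vehicle (13754 to 25951). Its lowest value, 753.9 FPKM, was that of AGN193109 4E. Without this library clutch E ran from 13251 to 28546 FPKM (median 15057), against 13754 to 26785 FPKM in clutch D (median 24953). TTNPB 4D, AGN193109 2D and 4D and vehicle 3D had 17951, 16573, 17635 and 13754 FPKM, the lowest of clutch D. AGN193109 2E was the highest of clutch E. Without AGN193109 4E the AGN193109 medians were 25917 FPKM for LOC100049085 and 17635 for XL444a17ex.

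LOC100049088 had medians of 15205 FPKM with TTNPB (12360 to 19344), 16678 with AGN193109 (11890 to 20313) and 16624 with vehicle (12493 to 20897). It was higher in clutch E, with 12812 to 20897 FPKM (median 18137), than in clutch D, with 11890 to 17635 FPKM (median 13130). IMAGE:6951433 had medians of 11790 FPKM with TTNPB (7436 to 18543), 13147 with AGN193109 (8511 to 21772) and 10075 with vehicle (7639 to 13981). It had 10007 to 21772 FPKM in clutch E (median 13954) and 7436 to 14593 FPKM in clutch D (median 9142). Both records overlapped between the clutches. Without AGN193109 4E their AGN193109 medians were 17190 FPKM for LOC100049088 and 11701 for IMAGE:6951433.

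XL409l07ex owed its place in the top 10 to 1 library. It had 168784 FPKM in AGN193109 4E, where it was the highest record, and 2109 to 6548 FPKM in the other 23 libraries. Its medians were 3651 FPKM with TTNPB (2109 to 6424), 4532 with AGN193109 and 3747 with vehicle (3319 to 6548). In clutch E the median was 3402 FPKM (2109 to 5673 without 4E), against 4894 in clutch D (3704 to 6548).

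**Figure D2:**
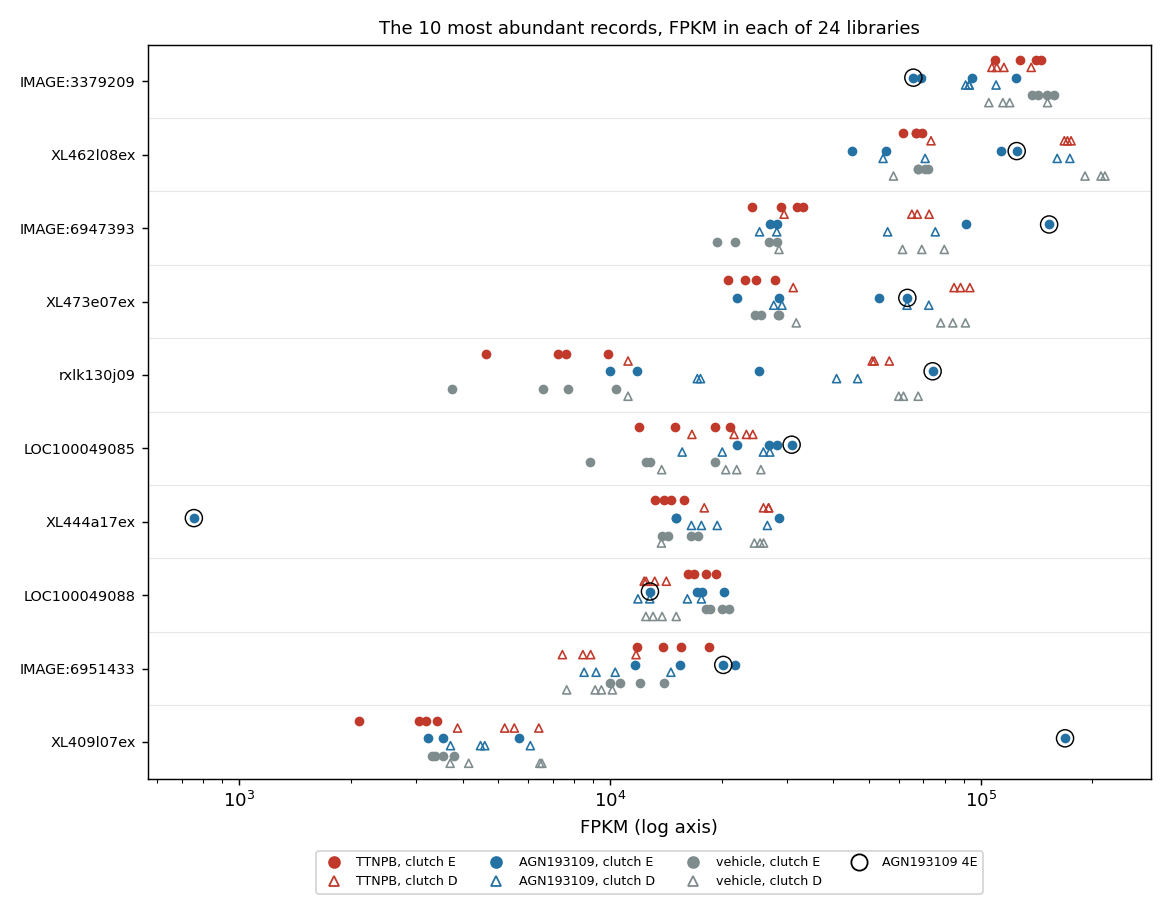
FPKM (log axis) of the 10 most abundant records (rows) in each library, with clutch E as filled circles, clutch D as open triangles, colours for the exposures and a ring around AGN193109 4E. In ranks 2 to 5, 4 clutch D triangles lie among or next to the clutch E circles; XL409l07ex at 168784 FPKM and XL444a17ex at 753.9 FPKM are the extreme values of AGN193109 4E.

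Ranks 11 to 20 were all clones. Their means ran from 8874 FPKM for XL469m21ex to 1802 FPKM for IMAGE:5156289, with IMAGE:6317670, xlk155j21, xlk107c13, IMAGE:7764119, xlk160h14, IMAGE:6944828, IMAGE:6318752 and IMAGE:4680508 between them. As in XL409l07ex, AGN193109 4E carried the highest value of xlk107c13 (25975 FPKM, against 1770 to 8598 in the others) and IMAGE:7764119 (55334 FPKM, against 547 to 3008). In lower ranks it did the same for IMAGE:5516158 (18933 FPKM, against 554 to 1830) and IMAGE:7764120 (5599 FPKM, against 88.4 to 2005).

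The first member described as a gene stood at rank 21. This was cold-inducible RNA binding protein 2, a protein with an RNA recognition motif, with a mean of 1771 FPKM. It had 1504 to 2221 FPKM in TTNPB libraries (median 1891), 1779 to 2056 FPKM in AGN193109 libraries without 4E and 1402 to 1883 FPKM in vehicle libraries (median 1725), while AGN193109 4E had 257 FPKM. Another 4 members were grouped here under RNA packaging or splicing, not all of them by name. Heterogeneous nuclear ribonucleoprotein A/B, which binds pre-messenger RNA, averaged 1499 FPKM, and heterogeneous ribonuclear particle protein 1400 FPKM. U1 70K, a protein of the U1 particle that recognises 5′ splice sites, averaged 1162 FPKM. Nuclease sensitive element binding protein 1, a Y-box protein of the cold shock domain family, averaged 1094 FPKM.

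Translation was represented by 2 records of elongation factor 1 alpha, which brings aminoacyl transfer RNA to the ribosome. The record described as eukaryotic translation elongation factor 1 alpha had 973 to 1578 FPKM with TTNPB (median 1359), 1046 to 1444 with AGN193109 without 4E and 903 to 1235 with vehicle (median 1191). The record described as elongation factor 1 alpha had 839 to 1227 FPKM with TTNPB (median 998), 844 to 1069 with AGN193109 without 4E and 895 to 1153 with vehicle (median 1027). In both, the exposures overlapped, and AGN193109 4E was lowest at 325 and 296 FPKM.

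The chromatin proteins among the 50 were 3. High-mobility group nucleosome binding domain 1, which binds the nucleosome core, averaged 1493 FPKM, the linker histone H1A variant, which binds the DNA between nucleosomes, 1290 FPKM, and high mobility group box 3, which bends DNA, 1148 FPKM. The linker histone was the most variable of the 12 gene-described members. Over the 23 libraries without AGN193109 4E it ran from 784 to 2121 FPKM, with a coefficient of variation of 24.8%. Zinc finger protein 1 (mean 978 FPKM) and MARCKS-like protein (mean 904 FPKM), named for a family of actin-binding protein kinase C substrates, complete the 12.

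**Figure D3:**
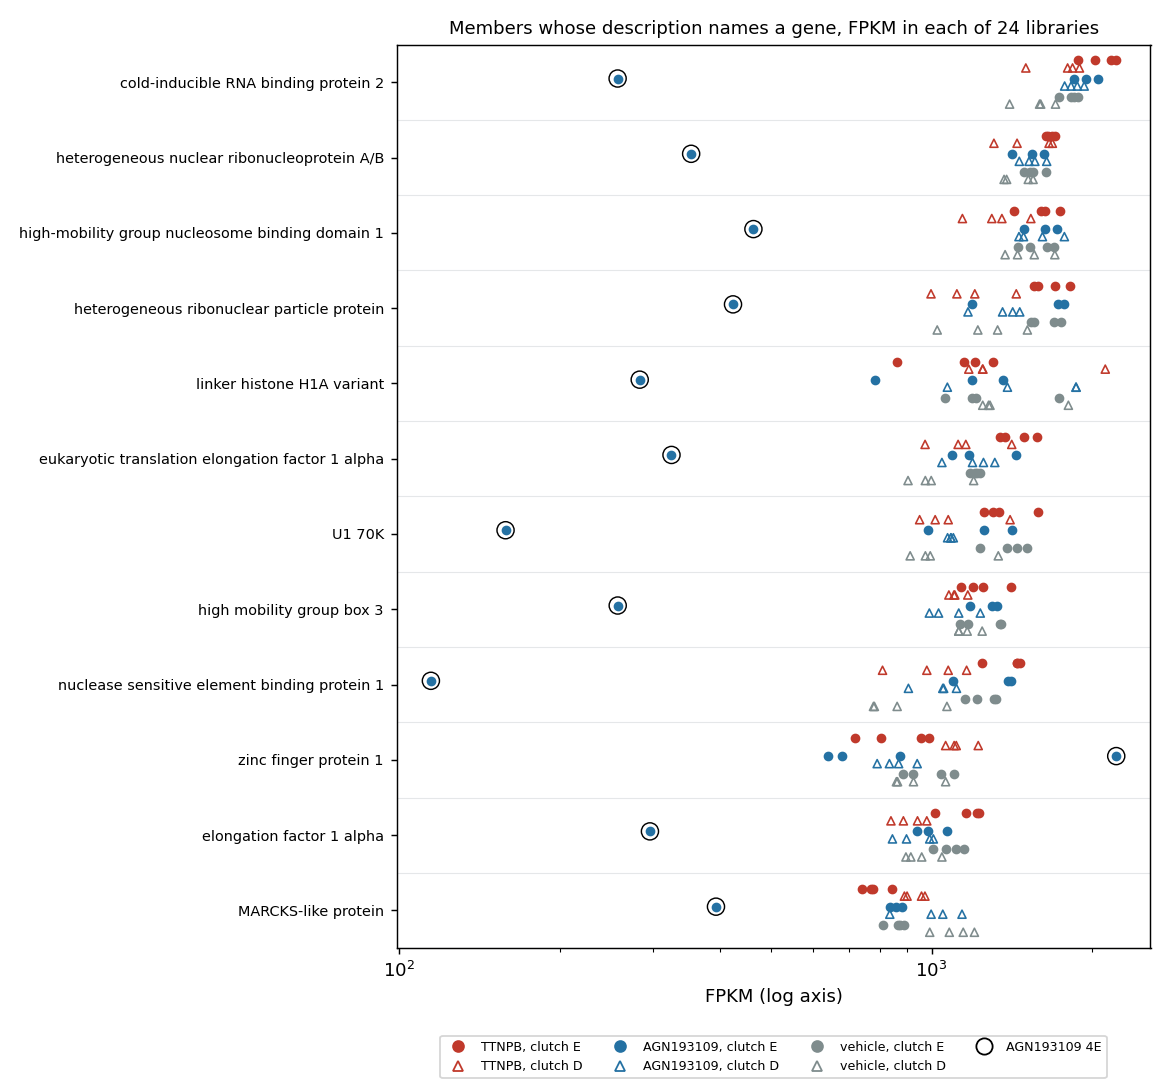
FPKM (log axis) of the 12 members described as genes (rows) in each library, with clutch E as filled circles, clutch D as open triangles, colours for the exposures and a ring around AGN193109 4E. In 11 of the 12 rows AGN193109 4E is the lowest library, and for zinc finger protein 1 it is the highest at 2224 FPKM.

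The median variation between libraries was lower in the members described as genes than in the others. Over the same 23 libraries their coefficient of variation ran from 7.25% to 24.8% (median 14.1%, 12 records). It ran from 7.63% to 85.8% in the other 38 members (median 27.9%), and had a median of 16.1% in the 440 tested records of at least 100 FPKM. By rank, its median was 30.0% in the 10 most abundant members and 17.05% in ranks 11 to 50. All 12 gene-described members stood at rank 21 or below, so kind of description and rank cannot be told apart here. AGN193109 4E was the lowest of all libraries for 31 of the 50 members (62.0%), against 51.5% of all tested records. It was the highest for 10 of the 50 members, against 3.84% of all tested records. The mean that chose the members included AGN193109 4E, so a high value in this library favoured membership and a low value counted against it. IMAGE:7764120, for example, averaged 909 FPKM with this library and 705 FPKM without it, where it left the 50. Both contrasts with all tested records are therefore description only.

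The remaining members had means between 1735 and 865 FPKM. In order of rank they were IMAGE:5516158, IMAGE:6635856, IMAGE:6635737, IMAGE:6324351, LOC100049086, MGC78845, IMAGE:3200510, XL036h24, IMAGE:7205580, XL171j08, XL500e08ex, XL407n07ex, xlk150k19, xlk141d17, IMAGE:7764120, IMAGE:7008012, IMAGE:6636175 and MGC132157. The lowest coefficient of variation among them was that of IMAGE:7008012, a clone of the MGC collection, at 7.63%, with 776 to 1065 FPKM in the 23 libraries. LOC100049086 ran from 1273 to 1701 FPKM in the same libraries and was highest in AGN193109 4E at 2265 FPKM. At the edge of the 50, ranks 46 to 50 had means of 909, 904, 890, 882 and 865 FPKM, and ranks 51 to 55 had 821, 737, 718, 716 and 699 FPKM. The record at rank 53 was that of nucleolin, a protein of the nucleolus.

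To ask whether TTNPB or AGN193109 changed these transcripts, log2(FPKM + 1) was fitted in limma with exposure and clutch as terms over all 19635 tested records. None of the 50 members passed an adjusted p of 0.05 in any of the 3 comparisons. The background was 163 records (0.83%) for TTNPB against vehicle, 4 (0.0204%) for AGN193109 against vehicle and 212 (1.08%) for TTNPB against AGN193109. At these shares fewer than 1 call would fall among 50 records. At an unadjusted p under 0.05, the members numbered 1, 9 and 3 of 50 in these comparisons, beside 1158, 1633 and 1518 of the 19635 records. Without AGN193109 4E none passed either, against 1.54%, 0.0814% and 1.5% of 19668 records, and 9, 12 and 4 members had an unadjusted p under 0.05, beside 2008, 2635 and 2146 of those records. The 2 comparisons with vehicle share the vehicle libraries.

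The median log2 difference over the 50 was -0.04 for TTNPB minus vehicle (all records 0.01), -0.22 for AGN193109 minus vehicle (all records -0.03) and 0.19 for TTNPB minus AGN193109 (all records 0.05). Without AGN193109 4E these medians were -0.04, -0.04 and 0.02, beside 0.01, 0.06 and -0.05 over all records. The 95% interval of the difference lay within a 2-fold change either way for 42, 34 and 37 of the 50 members with all libraries, and for 49, 47 and 48 without AGN193109 4E. A missed threshold does not show that these records were equal between exposures, and for the other members a change beyond 2-fold was within the interval.

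For TTNPB against vehicle the 3 largest differences, none past the threshold, were those of IMAGE:4680508, xlk141d17 and XL469m21ex. IMAGE:4680508 had 1168, 809, 767 and 1138 FPKM in TTNPB 1E to 4E and 2725, 3070, 3126 and 1738 FPKM in TTNPB 1D to 4D. In vehicle it had 1588, 1203, 1162 and 1280 FPKM in 1E to 4E and 4109, 4153, 2548 and 3819 FPKM in 1D to 4D. In clutch E all TTNPB libraries but 1E lay below all vehicle libraries, and in clutch D the exposures overlapped. The log2 difference was -0.46 ± 0.15 (SE, limma adjusted p = 0.356, and 0.141 without AGN193109 4E). The differences of xlk141d17 and XL469m21ex were -0.32 and -0.25.

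For AGN193109 against vehicle the largest differences were those of xlk141d17, XL407n07ex and IMAGE:7205580. xlk141d17 had 780.5, 449, 590 and 64.4 FPKM in AGN193109 1E to 4E, against 1194, 725, 958 and 1113 FPKM in vehicle 1E to 4E. In clutch D it had 1429, 677, 738 and 963 FPKM in AGN193109 1D to 4D, against 1352, 1531, 1652 and 1132 FPKM in vehicle 1D to 4D. The exposures overlapped in both clutches, and the log2 difference was -1.07 ± 0.34 (limma adjusted p = 0.369). Without AGN193109 4E it was -0.66 ± 0.15 (limma adjusted p = 0.0670). For XL407n07ex the difference was -0.80 with all libraries, where AGN193109 4E had 44.6 FPKM against 378 to 1908 in the other libraries.

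IMAGE:7205580 had 791.5, 763, 615 and 251 FPKM in AGN193109 1E to 4E, against 1046, 916, 964 and 1249 FPKM in vehicle 1E to 4E. These did not overlap. In clutch D it had 1521, 774.5, 1128 and 991 FPKM in AGN193109 1D to 4D, against 1549, 1661, 1687 and 1421 FPKM in vehicle 1D to 4D. Here AGN193109 1D lay above vehicle 4D. The log2 difference was -0.73 ± 0.19 (limma adjusted p = 0.218), and -0.55 ± 0.12 without AGN193109 4E (limma adjusted p = 0.0618).

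The most abundant record was also low with AGN193109 in clutch E. IMAGE:3379209 had 124246, 68802, 94458 and 65793 FPKM in AGN193109 1E to 4E, against 137286, 142635, 151088 and 157814 FPKM in vehicle 1E to 4E, with no overlap. In clutch D it had 93109, 91014, 92936 and 109980 FPKM in AGN193109 1D to 4D, against 114737, 119685, 151386 and 105126 FPKM in vehicle 1D to 4D, and AGN193109 4D overlapped with vehicle 4D. The log2 difference was -0.56 ± 0.17 with all libraries (limma adjusted p = 0.353) and -0.48 ± 0.14 without AGN193109 4E (limma adjusted p = 0.115), and passed in neither fit.

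For TTNPB against AGN193109 the largest differences were those of XL409l07ex (-0.83), xlk141d17 (0.76) and XL407n07ex (0.67). All 3 carry an extreme value of AGN193109 4E. Without that library the largest were IMAGE:3379209 (0.37 ± 0.14, limma adjusted p = 0.274) and IMAGE:7205580 (0.35 ± 0.12, limma adjusted p = 0.183).

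**Figure D4:**
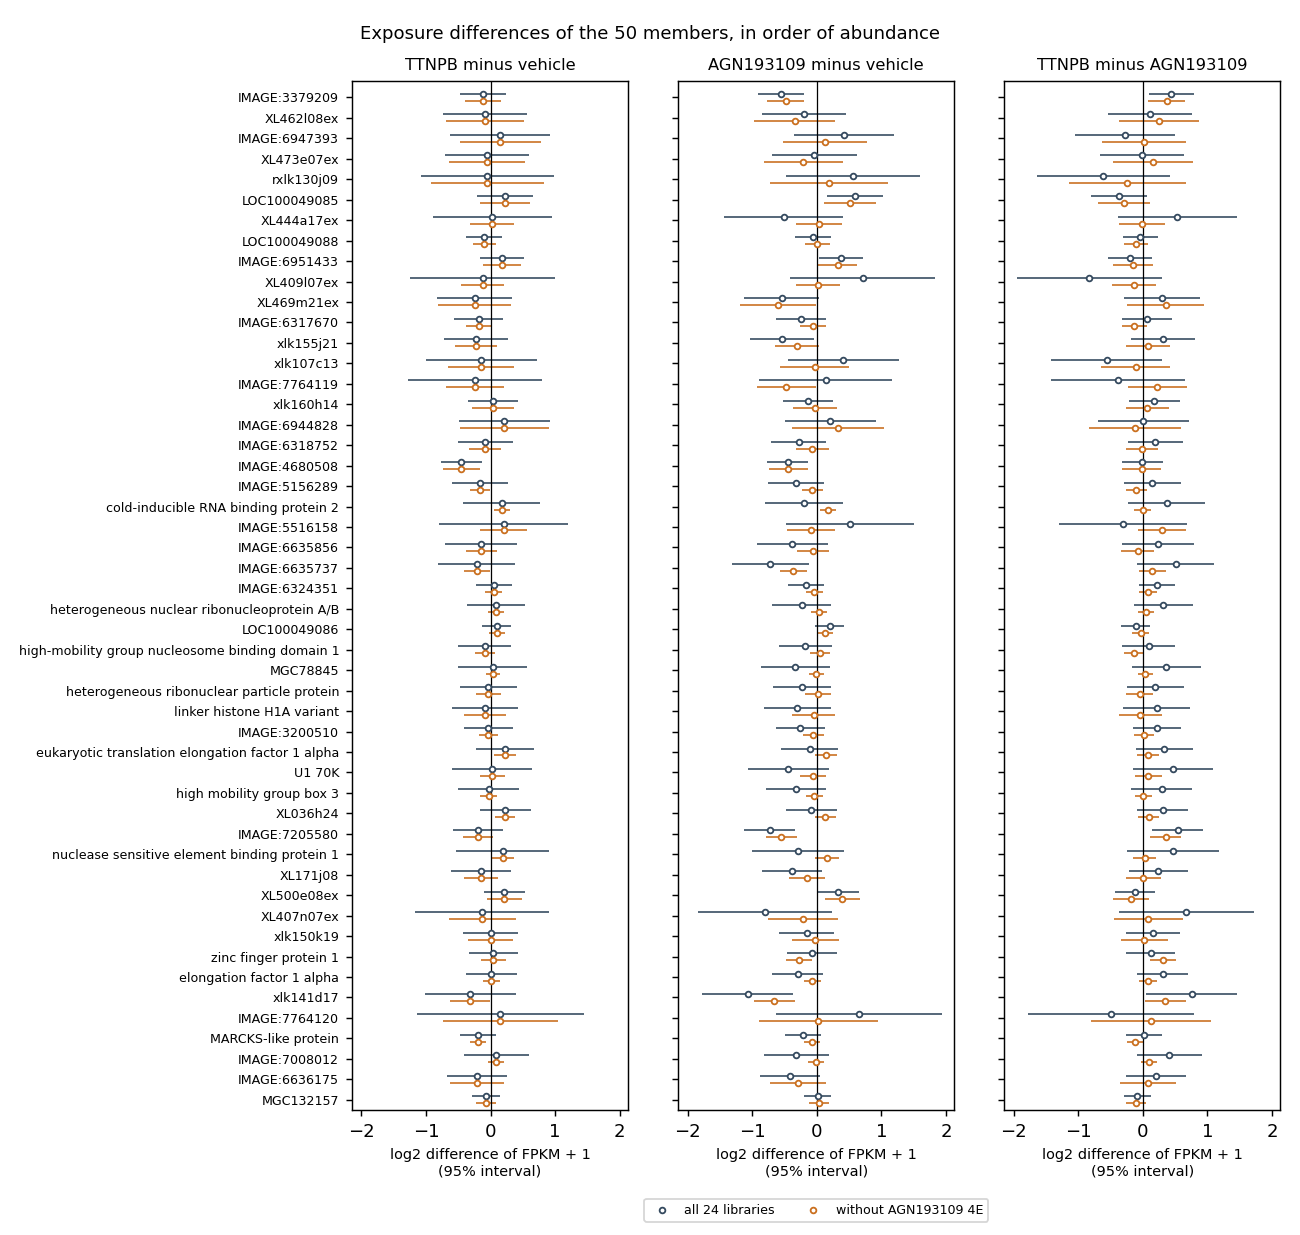
Log2 difference of FPKM + 1 (x axis, points with 95% intervals) of the 50 members, in order of abundance, for the 3 comparisons of exposures, with all 24 libraries (dark) and without AGN193109 4E (orange). No member passes an adjusted p of 0.05 in any panel, and the intervals narrow without AGN193109 4E.

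Whether the clutches differed in their response was asked with the interaction of exposure and clutch. By limma no member and none of the 19635 records passed the threshold for TTNPB (509 records and no member had an unadjusted p under 0.05) or for AGN193109 (1115 records and 5 members). Without AGN193109 4E again none passed. The comparison is imprecise: the 95% interval of the difference in response lay within 2-fold for 19 members with TTNPB and for 8 with AGN193109, and for 38 and 33 without AGN193109 4E. Within clutch E alone and clutch D alone, no member passed in any comparison of exposures. The share of all records passing in these smaller fits is not given here, so this is not read as a result about the members.

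Clutches differed in many records, and the members were not called more often than others with all libraries. For clutch E minus clutch D, 13 of the 50 members passed (26.0%, 4 higher and 9 lower in clutch E), against 6256 of 19635 records (31.9%, with 732 or 3.73% higher and 5524 or 28.1% lower). Without AGN193109 4E, 30 members passed (60.0%, 15 in each direction), against 7781 of 19668 records (39.6%, with 1758 or 8.94% higher and 6023 or 30.6% lower), and all of the first 13 were among the 30. The 30 include IMAGE:7764120, which would not be among the 50 without that library. The split over all records depended on scaling. As deposited the median log2 difference over all records was -0.20, and scaling to the upper quartile moved it to -0.01, with 2521 records higher and 2921 lower in clutch E. The members then split into 11 higher and 5 lower.

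Scaled instead to the FPKM total of records below rank 100, 2238 records were higher and 3197 lower, with 9 members higher and 5 lower. After quantile normalization 2586 were higher and 2814 lower, with 6 members higher and 11 lower. None of the 13 members changed sign under any of these scalings. Upper-quartile scaling moved clutch differences upward (LOC100049088 from 0.39 to 0.63), so members higher in clutch E could not change sign by it.

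The 9 members lower in clutch E were IMAGE:7764120 (log2 difference -2.09), rxlk130j09 (-1.77), IMAGE:4680508 (-1.37), XL469m21ex (-1.18), xlk107c13 (-1.06), XL473e07ex (-1.004), XL462l08ex (-0.86), IMAGE:7205580 (-0.78) and MARCKS-like protein (-0.37). IMAGE:4680508 had the smallest adjusted p (limma, 1.56e-08), with 767 to 1588 FPKM in clutch E and 1738 to 4153 FPKM in clutch D. It was the one of the 13 whose clutches did not overlap. TTNPB 4D, AGN193109 2D and 4D and vehicle 3D, which shared the lower levels of XL462l08ex with clutch E, had 1738, 2177, 1958 and 2548 FPKM of IMAGE:4680508, above all 12 clutch E libraries.

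In the other 8 the clutches overlapped. XL462l08ex (limma adjusted p = 0.0125) and XL473e07ex (0.00446) passed although those 4 clutch D libraries lay within or near the clutch E range. With all 24 libraries these 2 records did not pass when the values were scaled to the upper quartile or to the total below rank 100. IMAGE:7764120 had 88.4 to 900 FPKM in clutch E without 4E, against 239 to 2005 FPKM in clutch D, and its log2 difference without 4E was -2.51. The value of 5599 FPKM in AGN193109 4E was above every clutch D library. XL469m21ex had 3207 to 7264 FPKM in clutch E (median 4781), against 3370 to 19319 in clutch D (median 14026). xlk107c13 had 1770 to 5218 FPKM in clutch E without 4E, against 3099 to 8598 in clutch D. With all 24 libraries it too did not pass under these 2 scalings. Without AGN193109 4E, XL462l08ex, XL473e07ex and xlk107c13 passed as deposited and under both scalings.

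The 4 members higher in clutch E were IMAGE:7764119 (log2 difference 1.11), IMAGE:6951433 (0.59), xlk150k19 (0.47) and LOC100049088 (0.39). The difference of IMAGE:7764119 was 0.71 without AGN193109 4E, with 1540 to 3008 FPKM in clutch E, against 547 to 2481 FPKM in clutch D. With all libraries its call was lost when AGN193109 1D, 3D or 4D, TTNPB 2D or 2E or vehicle 1E, 3D or 4E was left out (log2 difference 0.96 to 1.13). xlk150k19 had 719 to 1698 FPKM in clutch E without 4E, against 591 to 1318 FPKM in clutch D, and its call was lost when AGN193109 1E, TTNPB 1D, 1E, 2D, 2E or 3D, or vehicle 1D, 2E, 3E or 4D was left out (log2 difference 0.42 to 0.46). LOC100049088 had its lowest clutch E value, 12812 FPKM, in AGN193109 4E, and ran from 16227 to 20897 FPKM in the other 11.

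Among the 12 gene-described members, MARCKS-like protein alone passed with all libraries. It had 769.9, 741, 843 and 777 FPKM in TTNPB 1E to 4E, 882, 856.5, 836 and 393.5 in AGN193109 1E to 4E and 889, 809, 866 and 871 in vehicle 1E to 4E. In clutch D it had 958, 899.6, 972 and 889 FPKM in TTNPB 1D to 4D, 1141, 835, 1050 and 998 in AGN193109 1D to 4D and 992, 1080, 1147 and 1204 in vehicle 1D to 4D. Its log2 difference of -0.37 ± 0.11 (limma adjusted p = 0.0128) was -0.12 after scaling to the upper quartile and no longer passed.

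Without AGN193109 4E, 8 of the 12 passed, 7 of them higher in clutch E. Over all records 39.6% passed in that fit, with 8.94% higher and 30.6% lower in clutch E. The 7 were nuclease sensitive element binding protein 1 (log2 difference 0.45), heterogeneous ribonuclear particle protein (0.36), U1 70K (0.30), eukaryotic translation elongation factor 1 alpha (0.21), elongation factor 1 alpha (0.21), cold-inducible RNA binding protein 2 (0.18) and high mobility group box 3 (0.15). Nuclease sensitive element binding protein 1 had 1099 to 1466 FPKM in those 11 clutch E libraries, against 778 to 1164 FPKM in the 12 of clutch D, overlapping at the edge. AGN193109 4E had 115 FPKM. All 7 kept their call and sign under upper-quartile and below-rank-100 scaling without that library. Upper-quartile scaling moved clutch differences upward, that of U1 70K for example from 0.30 to 0.46. A member already higher in clutch E could not change sign by it, so the kept sign of the 7 was fixed in advance there. Over all 30 members called without AGN193109 4E, 25 kept call and sign under both scalings (15 higher, 10 lower), and IMAGE:6947393, XL444a17ex, IMAGE:6635737, xlk141d17 and MARCKS-like protein did not. How many of all records kept their call is not given here, so this count is not read as a result about the members.

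The others called without AGN193109 4E were MGC78845 (0.27), IMAGE:3200510 (0.21), XL036h24 (0.44) and XL407n07ex (0.65), higher in clutch E, and IMAGE:6947393 (-0.76), IMAGE:5516158 (-0.66), XL409l07ex (-0.54), XL444a17ex (-0.46), xlk141d17 (-0.42) and IMAGE:6635737 (-0.25), lower in clutch E. Those not called in either fit included IMAGE:3379209, whose log2 difference was 0.08 ± 0.14 with all libraries.

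**Figure D5:**
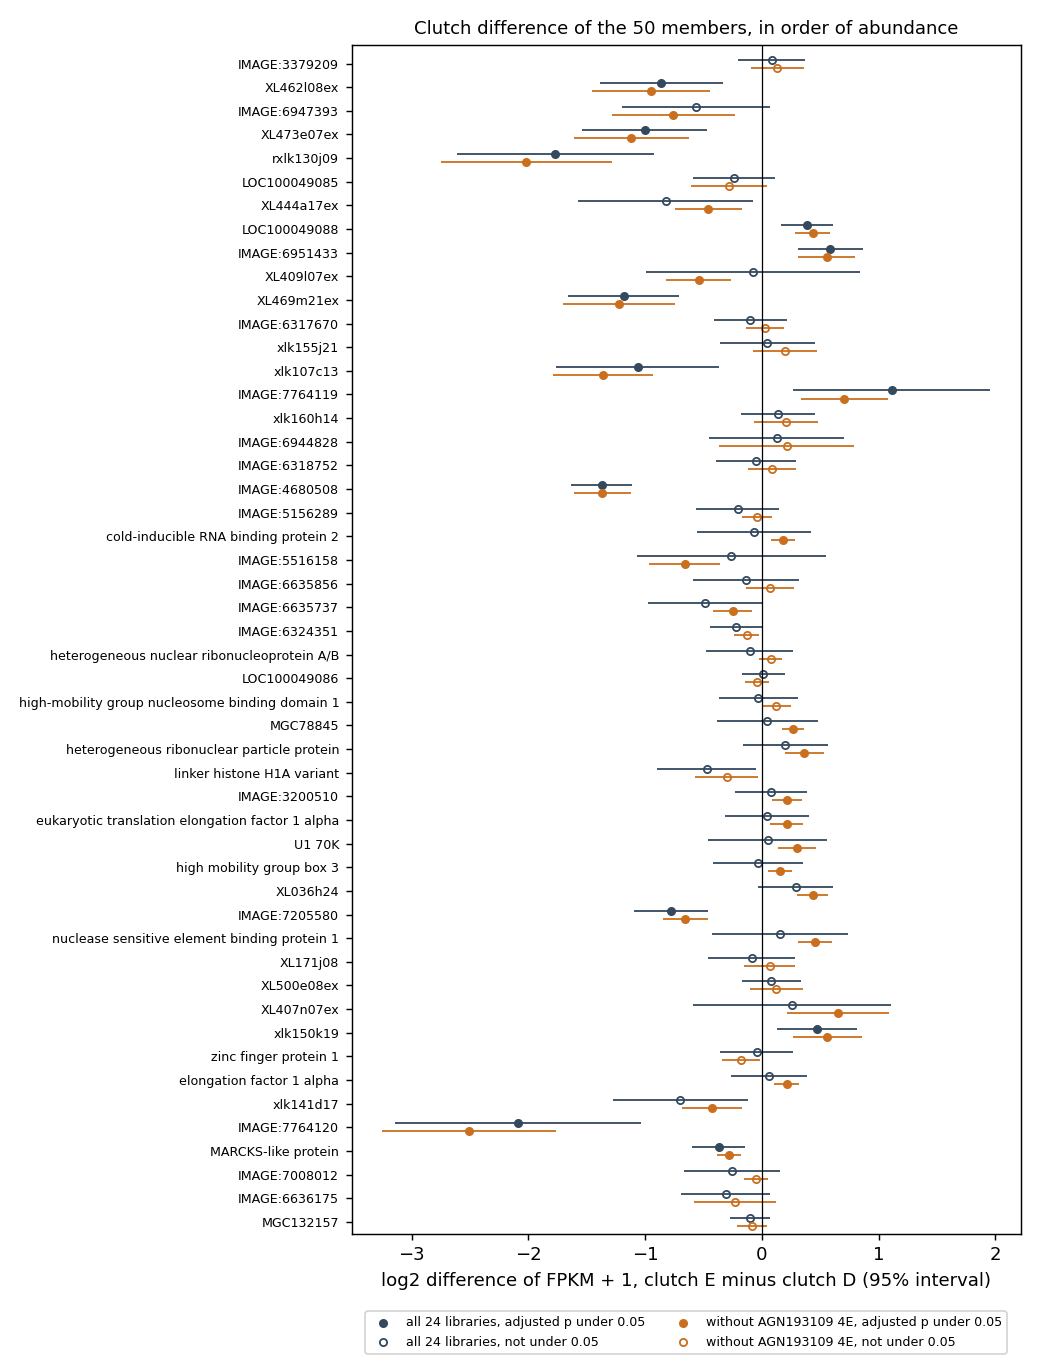
Log2 difference of FPKM + 1, clutch E minus clutch D (x axis, points with 95% intervals), of the 50 members in order of abundance, with all 24 libraries (dark) and without AGN193109 4E (orange); filled points pass an adjusted p of 0.05. Filled points number 13 with all libraries and 30 without AGN193109 4E, where 7 gene-described members turn filled on the right of 0.

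Wider groups of the same roles, collected by words in the record descriptions, were set beside the members. No record of any of the 10 groups passed in a comparison of exposures with all libraries, and 2 did without AGN193109 4E (1 RNA-binding record higher with TTNPB than with vehicle, 1 chaperone record higher with TTNPB than with AGN193109). Of all records, 0.83% passed for TTNPB against vehicle, 0.0204% for AGN193109 against vehicle and 1.08% for TTNPB against AGN193109. Without AGN193109 4E these shares were 1.54%, 0.0814% and 1.5%. By clutch, 0 of 31 translation factor records, 2 of them members, were higher and 7 lower in clutch E (median log2 difference -0.19). Of 31 ribonucleoprotein and RNA-binding records, 3 of them members, 0 were higher and 7 lower (median -0.17). Of 9 histone records, with 1 member, 0 were higher and 3 lower (median -0.35). Over all records 3.73% were higher and 28.1% lower, with a median of -0.20.

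The groups without a member stand beside the same shares of all records, a split that depended on scaling. Higher and lower in clutch E were 0 and 11 of 30 ribosomal protein records, 1 and 5 of 24 actin and tubulin records, 0 and 6 of 23 chaperone records, 0 and 2 of 2 mitochondrially encoded records, 0 and 2 of 3 cyclophilin records, 0 and 1 of 3 ATP synthase or ADP/ATP carrier records, and 0 and 0 of 1 ubiquitin record. Without AGN193109 4E the counts were 6 higher and 10 lower for translation factors, with both elongation factor 1 alpha members among the 6. They were 5 and 9 for the RNA-binding group, 0 and 3 for histones, 1 and 12 for ribosomal proteins, 2 and 6 for actins and tubulins and 1 and 8 for chaperones. Mitochondrially encoded records had 0 and 2, cyclophilins 0 and 3, ATP synthase or ADP/ATP carriers 0 and 2 and ubiquitin 1 and 0. Over all records 8.94% were higher and 30.6% lower in that fit.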

How the data were processed

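RNA of 24 pools of 5 gastrulae was, per the labels' protocols, amplified to cDNA with the Ovation V2 kit and sequenced as SOLiD fragment libraries. The authors deposited FPKM for 31306 records, and TopHat, Bowtie and Cufflinks are named in the submitters' processing notes; the sources used here do not give the alignment target. FPKM keeps no depth, so no counting interval is given.

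The 50 members, the role groups and the tests were chosen with earlier results of these data known. Shares are percentages of the summed FPKM of a library. The 19635 records averaging 1 FPKM or more were tested as log2(FPKM + 1) in limma 3.58.1 (R 4.3.3, trended empirical Bayes) with exposure and clutch as terms, or their interaction, and Benjamini-Hochberg adjustment over all records (threshold 0.05). Fold changes are on the log2(FPKM + 1) scale. Without AGN193109 4E, the filter was applied anew (19668 records). Named were all 50 members, the top 10 in full, up to 10 members past the threshold in each direction and otherwise the 3 largest differences. Values of gene-described members, of IMAGE:3379209 by clutch and exposure, and of libraries that stood apart were added after the data were seen. Figures used matplotlib 3.10.9 in Python 3.11.15.

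Alternatives were another pseudocount (0.1) and filter (none, 5 FPKM), upper-quartile, quantile and below-rank-100 scaling, array weights, a replicate block, no clutch term, fewer groups, single clutches and each library left out. No sequences of these records were used here.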

Additional observations from a re-analysis of the deposited data

Results flagged for a closer look

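Libraries were looked at more closely by Dixon's rule, over 153 groups of values (50 members and the share, in 3 exposures). The distance of a library from the nearest other of its exposure, divided by the range of that exposure, had to exceed Dixon's critical value. This marked 27 groups; chance alone marks about 1 in 20. The members were chosen by these levels, so the marks describe single libraries and support no comparison. Of the 27, 24 were AGN193109 4E, 8 as the highest and 16 as the lowest library of its exposure.

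As the highest, AGN193109 4E had a share of 85.9% of summed FPKM held by the 50 members, 168784 FPKM of XL409l07ex, 55334 of IMAGE:7764119, 25975 of xlk107c13, 18933 of IMAGE:5516158, 5599 of IMAGE:7764120, 2265 of LOC100049086 and 2224 of zinc finger protein 1. As the lowest, it had 693 FPKM of IMAGE:6324351, 462.7 of high-mobility group nucleosome binding domain 1, 462 of IMAGE:5156289, 423.6 of heterogeneous ribonuclear particle protein, 393.5 of XL036h24, 393.5 of MARCKS-like protein and 353.4 of heterogeneous nuclear ribonucleoprotein A/B. It was also lowest with 324.6 FPKM of eukaryotic translation elongation factor 1 alpha, 295.7 of elongation factor 1 alpha, 257.8 of MGC78845, 257.2 of high mobility group box 3 and 257.1 of cold-inducible RNA binding protein 2. The 4 lowest of the 16 values were 177 FPKM of IMAGE:6635737, 159.5 of IMAGE:7008012, 158.3 of U1 70K and 114.6 of nuclease sensitive element binding protein 1.

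The other 3 were spread over 3 libraries. IMAGE:6944828 had 4224 FPKM in TTNPB 3E, against 1475 to 1944 in the other TTNPB libraries, and 8428 FPKM in AGN193109 2E. The linker histone H1A variant had 2121 FPKM in TTNPB 4D.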

How the results depend on the processing

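With all 24 libraries 13 members passed for clutch E minus clutch D. The count was 7 with no filter on low values and 28 with array weights; it ran from 11 to 30 when single libraries were left out, the 30 being without AGN193109 4E. Alternatives chosen after seeing the data gave 30 without AGN193109 2E and 4E, 31 with upper-quartile scaling and 29 with scaling below rank 100, the last 2 without 4E. Over all records 31.9% passed with all libraries and 39.6% without AGN193109 4E. For the other fits the share over all records is not given here, so their counts are not read as a result about the members. TTNPB against AGN193109 called 1 member, MARCKS-like protein (log2 difference -0.29, limma adjusted p = 0.0338), after quantile normalization. Counts for exposures and for the clutch difference in response were 0 in every other fit run, single-library omissions included (0 to 0). Pairs of libraries were correlated in what remained after exposure and clutch were taken into account, not in their levels. With the same replicate number these correlations ran from -0.115 to 0.119, with 1 of 24 over 0.1. Between other numbers they ran from -0.131 to 0.168, with 3 of 72 over 0.1. No effect shared by a number was visible, which cannot show how the pools were paired. With the replicate block 13 members passed for clutch and 0 for exposures. Of the alternative values of the 13 called members, 430 kept call and sign, 38 lost the call and none changed sign; the cause of these losses was not tested. Leaving out 1 library moved the mean share to 60.8% to 62.6% (TTNPB), 59.8% to 64.4% (AGN193109) and 62.5% to 64.4% (vehicle). Other rankings kept 49 or 50 of the 50; without AGN193109 4E, IMAGE:7764120 was replaced by IMAGE:6633858. Depth is unknown, so values near a library's detection limit cannot be judged.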

Other observations

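The records whose description holds the words ribosomal protein made up little of the summed FPKM. The 38 records so described, some of them mitochondrial, held 0.0295% in AGN193109 4E and 0.0984% to 0.2005% in the other 23 libraries. The members were chosen for abundance and these records by words, so the 2 are not compared. Clones whose description names no ribosomal protein are not counted, so these shares are not the level of all ribosomal protein RNA. The keratin records, which mark the outer layer of the embryo among other epithelia, summed to 143 to 934 FPKM over 26 records. They too were found by words in the description and are not compared with the members.

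The summed FPKM of a library was itself uneven, from 636467 to 988136 in clutch E (median 682182) and from 672614 to 1011845 in clutch D (median 931308). TTNPB 4D, AGN193109 2D and 4D and vehicle 3D, the 4 clutch D libraries with low XL462l08ex, had 726890, 672614, 712645 and 729879, below the other 8 of clutch D.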
